A study of Sus scrofa with 50 samples.

Results

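Heart and liver of the same 10 Korean minipigs (Sus scrofa) were compared for the transcripts of fuel use and of the mitochondrion. All heart and all liver libraries of the series were taken and matched through the animal code in their titles, which gave 20 of the 50 libraries and 10 pairs. 5 animals were ET-type (S0235, S0242, S0276, S0309 and S0326) and 5 were L-type (S0349, S0355, S0377, S0384 and S0385), the 2 types of minipig that the study set side by side. No treatment, allele or transgene separates them in the labels. Total RNA had been extracted with TRIzol and made into stranded mRNA libraries, and every value is in TPM, a transcript's share of its library after division by transcript length, on a scale with the same total in every library. Transcripts had been assembled de novo, and here the TPM of all transcripts with the same best Swiss-Prot match was summed, so a gene is named by the entry name of that match (MLRV, the ventricular myosin regulatory light chain).

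Heart and liver are both rich in mitochondria but use them for different ends. Cardiac muscle oxidizes fatty acids, lactate, glucose and ketone bodies without pause and passes the energy to its contractile proteins through ATP and creatine phosphate. The liver makes glucose and ketone bodies for other organs, turns ammonia into urea, breaks down amino acids, and synthesizes and exports lipid. Many steps of these routes have a pair of enzymes encoded by separate genes, 1 typical of muscle and 1 typical of liver. Most subunits of the respiratory chain are encoded in the nucleus, and a small set is encoded in the mitochondrial genome itself.

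The organs' labels were first set against their markers. MLRV stood at 11458, 43791 and 51624 TPM in heart and 0, 0 and 1.499 TPM in liver, where the 3 values are the lowest, the median and the highest of the 10 libraries, here and below. ALBU, serum albumin made by hepatocytes, stood at 1.92, 2.24 and 3.69 TPM in heart and 55175, 115075 and 174596 TPM in liver. Neither gene's heart and liver values came near each other. All 12 measured heart muscle markers were higher in heart and all 14 hepatocyte markers were higher in liver, and their summed level in the other organ was at most 24.3 TPM (heart muscle markers in liver) and at most 131.8 TPM (hepatocyte markers in heart). Both organs are mixtures of cells, and in bulk RNA fewer cells of a type and less RNA per cell cannot be told apart. Marker lists of other cells differed too: 6 of 6 endothelial markers (summed level 135 to 491 TPM in heart and 15.1 to 139.5 TPM in liver), 6 of 6 fibroblast markers (222 to 2335 TPM and 12.2 to 92.5 TPM) and 3 of 4 smooth muscle markers were higher in heart, and 3 of 3 tested bile duct and 2 of 6 macrophage markers were higher in liver. None of 2 tested lymphocyte or 3 red cell markers passed. The part of these other cells in the differences below was not tested.

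Of 23196 genes tested, 9030 (38.9%) differed between the organs, 4196 (18.1%) higher in heart and 4834 (20.8%) higher in liver. A gene was called where limma's paired test on log2(TPM + 1) gave an adjusted p below 0.05 and the mean difference was at least 1, that is 2-fold on this scale, which understates the difference of genes with low levels. In a stricter count without a test, 2892 genes (12.5%) had all 10 hearts above all 10 livers, and 3295 (14.2%) had all livers above all hearts. The 21 lists of fuel and mitochondrial genes held 430 tested genes, of which 166 (38.6%) were higher in heart and 123 (28.6%) were higher in liver. Because TPM is a share, transcripts of the mitochondrial genome, at 29.1% to 47.1% of all TPM in heart and 6.58% to 26.4% in liver, lower every other heart value relative to liver. With those transcripts left out and the rest rescaled, the median difference of all genes moved by 0.42, from -0.11 to 0.31, and the share of calls that were higher in heart moved from 46.5% to 63.7% (52.8% with quantile normalization and 57.2% without the 10 highest genes). The hearts of S0276, S0309 and S0326 and the liver of S0326 had the highest mitochondrial shares of their organ, and 9252 genes were called without S0309 and 9008 without S0326. List medians below are read against the median of all genes, -0.11, and list shares are given within the TPM outside the mitochondrial genome unless stated otherwise. Differences are heart minus liver in log2(TPM + 1) with the standard error of limma's fit over 10 animals, folds are ratios of mean TPM, and adjusted p-values are limma's.

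Transcripts for the uptake and binding of fatty acids differed between the organs, in both directions. LIPL, lipoprotein lipase, which releases fatty acids from circulating lipoproteins, stood at 25.5, 61.2 and 120.2 TPM in heart and 0.0593, 0.103 and 0.306 TPM in liver. No liver reached the lowest heart, and the mean was 519.6-fold higher in heart (log2 difference 5.70 ± 0.20, adjusted p = 2.07e-11). The fatty acid binding proteins split by organ. FABPH, the heart form, stood at 175, 631 and 1028 TPM in heart and 2.06, 3.35 and 18.6 TPM in liver, and FABPL, the liver form, at 0.163, 0.529 and 0.836 TPM in heart and 254, 1879.8 and 4005 TPM in liver. Neither pair of ranges overlapped, and the differences were 6.62 ± 0.35 for FABPH and -10.10 ± 0.31 for FABPL. FABP4, the form typical of fat cells and endothelium, was also higher in heart (24.9, 89.0 and 245 TPM in heart and 0.548, 1.21 and 1.55 TPM in liver, log2 difference 5.50 ± 0.34, adjusted p = 7.67e-09), beside the higher endothelial markers. CD36, a fatty acid receptor of the cell surface, was high in both organs at 456, 723 and 1110.0 TPM in heart and 59.5, 259 and 479.8 TPM in liver, ranges that overlapped at their edges, with a difference of 1.63 ± 0.28 and heart above liver in 10 of 10 animals. Its assembled transcripts were called in both directions, so the sum hides transcripts that differ the other way. Of the fatty acid transporters, S27A1 was higher in heart by 2.65 ± 0.12, while S27A2 (heart listed at 0 in most libraries, liver 33.8 to 236 TPM) and S27A5 (-7.65 ± 0.11), which also serve very long chain fatty acids and bile acids, were higher in liver.

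Entry of fatty acids into the mitochondrion showed a division between neighbouring steps. Carnitine palmitoyltransferase 1, which makes acylcarnitines at the outer membrane, was CPT1B in heart (124, 234 and 409 TPM in heart, 0.796, 2.03 and 5.37 TPM in liver) and CPT1A in liver (18.96, 115 and 378 TPM in liver, 6.62, 15.1 and 28.9 TPM in heart). The CPT1B ranges were far apart, and the CPT1A ranges overlapped although liver was higher in 10 of 10 animals; the differences were 6.22 ± 0.26 and -2.52 ± 0.26 (adjusted p = 1e-10 and 1.11e-06). CPT2, which reverses the reaction inside, was 6.71-fold higher in liver (4.89, 14.98 and 24.4 TPM in heart and 37.6, 93.1 and 159 TPM in liver, log2 difference -2.64 ± 0.26, adjusted p = 9.71e-07). The carnitine-acylcarnitine carrier MCAT and carnitine acetyltransferase CACP did not pass (-0.56 ± 0.18 and -0.84 ± 0.23). The acyl-CoA synthetases ACSL1, ACSL3 and ACSL5, which activate fatty acids, were all higher in liver (-2.42 ± 0.28, -2.46 ± 0.22 and -3.24 ± 0.24), and none of the 4 tested was higher in heart. Acetyl-CoA carboxylase, whose product malonyl-CoA inhibits CPT1, also had 1 gene per organ. ACACB, the form at the mitochondrion, stood at 21.0, 35.3 and 64.9 TPM in heart and 0.362, 1.04 and 8.78 TPM in liver (log2 difference 4.01 ± 0.24, adjusted p = 4.5e-09). ACACA, the form for lipid synthesis in the cytosol, stood at 2.02, 3.73 and 6.19 TPM in heart and 11.2, 23.5 and 39.9 TPM in liver (log2 difference -2.37 ± 0.20, adjusted p = 1.78e-07). Neither gene's ranges overlapped. Over the list of fatty acid entry, 7 of 24 tested genes (29.2%) were higher in heart and 11 (45.8%) in liver, against 18.1% and 20.8% of all genes. The median was -0.70, and 6 and 8 had ranges that did not overlap, against 12.5% and 14.2% of all genes. Carnitine octanoyltransferase, OCTC, had a difference of -5.58 ± 0.22, but its best matches went down to 57.7% identity.

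In the mitochondrial beta-oxidation spiral 4 of 18 tested genes (22.2%) were higher in heart, 6 (33.3%) in liver and 8 did not pass, with a median of -0.61. Of all genes 18.1% were higher in heart and 20.8% in liver, so the heart count lay near the share of all genes. Ranges did not overlap for 6 genes higher in liver and 0 higher in heart, against 14.2% and 12.5% of all genes. Both subunits of the trifunctional protein, which acts on long chains, were higher in heart, ECHA at 93.6, 335 and 492 TPM in heart and 45.8, 108 and 286 TPM in liver (1.20 ± 0.17) and ECHB at 64.3, 251 and 452 TPM in heart and 21.2, 67.7 and 137 TPM in liver (1.66 ± 0.27). ACADV, which opens the spiral for very long chains, was 2.29-fold higher in heart (log2 difference 1.23 ± 0.22, adjusted p = 0.000261). The ranges of these 3 genes overlapped, with heart above liver in 10 of 10, 9 of 10 and 9 of 10 animals. ACAD9, an acyl-CoA dehydrogenase that also serves complex I assembly, was higher in liver in 10 of 10 animals without overlap (log2 difference -1.69 ± 0.20, adjusted p = 3.96e-06). ECHM, the short chain enoyl-CoA hydratase, stood at 283, 647 and 804 TPM in heart and 2197, 2938 and 3930.4 TPM in liver without overlap (log2 difference -2.39 ± 0.19, adjusted p = 7.31e-08). ACADS, the short chain dehydrogenase, was 3.51-fold higher in liver (-1.90 ± 0.19), also without overlap. The long and medium chain dehydrogenases ACADL and ACADM did not pass (0.06 ± 0.31 and -0.26 ± 0.45), and ACADM ran from -4.15 to 1.68 between animals. THIM, the mitochondrial 3-ketoacyl-CoA thiolase, was higher in heart in 10 of 10 animals (42.7, 282 and 349.9 TPM in heart and 2.46, 27.9 and 167 TPM in liver, log2 difference 3.11 ± 0.47, adjusted p = 5.53e-05). Its livers fell into a wide range, so the difference ran from 0.74 to 6.09. The electron transfer flavoprotein genes ETFA, ETFB and ETFD, which hand the electrons on, did not pass the size limit (-0.63 ± 0.27, -0.65 ± 0.13 and 0.66 ± 0.19, with 1 ETFB transcript called in each direction), and ETFD passed at 1.19 with mitochondrial transcripts left out. As a share, the 18 genes took 0.214%, 0.515% and 0.648% in heart and 0.507%, 0.635% and 0.815% in liver, ranges that overlapped, with heart higher in 2 of 10 animals. This sum leans on 1 gene. ECHM alone had medians of 647 TPM in heart and 2938 TPM in liver, where the whole list had 3407 and 5761 TPM. The share therefore does not speak for the other genes of the list.

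Peroxisomal oxidation, which shortens very long and branched fatty acids, was higher in liver for 15 of 17 tested genes and higher in heart for 1, with a median of -2.76. CATA, catalase, which removes the hydrogen peroxide formed there, stood at 47.4, 86.4 and 123 TPM in heart and 544, 2806 and 3983 TPM in liver. All livers were above all hearts (log2 difference -4.76 ± 0.26, adjusted p = 2.24e-09). The bifunctional enzymes ECHP and DHB4 differed by -5.79 ± 0.36 and -3.59 ± 0.19, and the thiolase THIK by -5.00 ± 0.16. 12 of the 17 had ranges without overlap. The thioesterase ACOT8 did not pass (-0.24 ± 0.11). ACOX3 and PX11A, called at -1.4 and -1.04, fell short at -0.91 and -0.59 with mitochondrial transcripts left out, and PX11A also when single animals were left out (-0.89 without S0309). The genes took 0.0954%, 0.140% and 0.176% in heart and 0.594%, 0.885% and 0.977% in liver of the TPM outside the mitochondrial genome.

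Of 4 tested ketone body genes, 1 (25%) was higher in heart and 2 (50%) in liver, against 18.1% and 20.8% of all genes. SCOT1, the succinyl-CoA transferase that lets an organ burn ketone bodies and that hepatocytes are known to lack, stood at 15.5, 48.4 and 124 TPM in heart and 0.0967, 0.375 and 1.35 TPM in liver. The lowest heart was above the highest liver, and the difference was 4.88 ± 0.28 (adjusted p = 2.84e-09). BDH, which interconverts the 2 main ketone bodies, was 5.44-fold higher in liver (-2.46 ± 0.33). THIL, the acetoacetyl-CoA thiolase, was higher in liver in 10 of 10 animals but at -0.98 ± 0.22 fell just short of the size limit, and it passed without S0242 (-1.03) and in several other leave-outs.

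**Figure D1:**
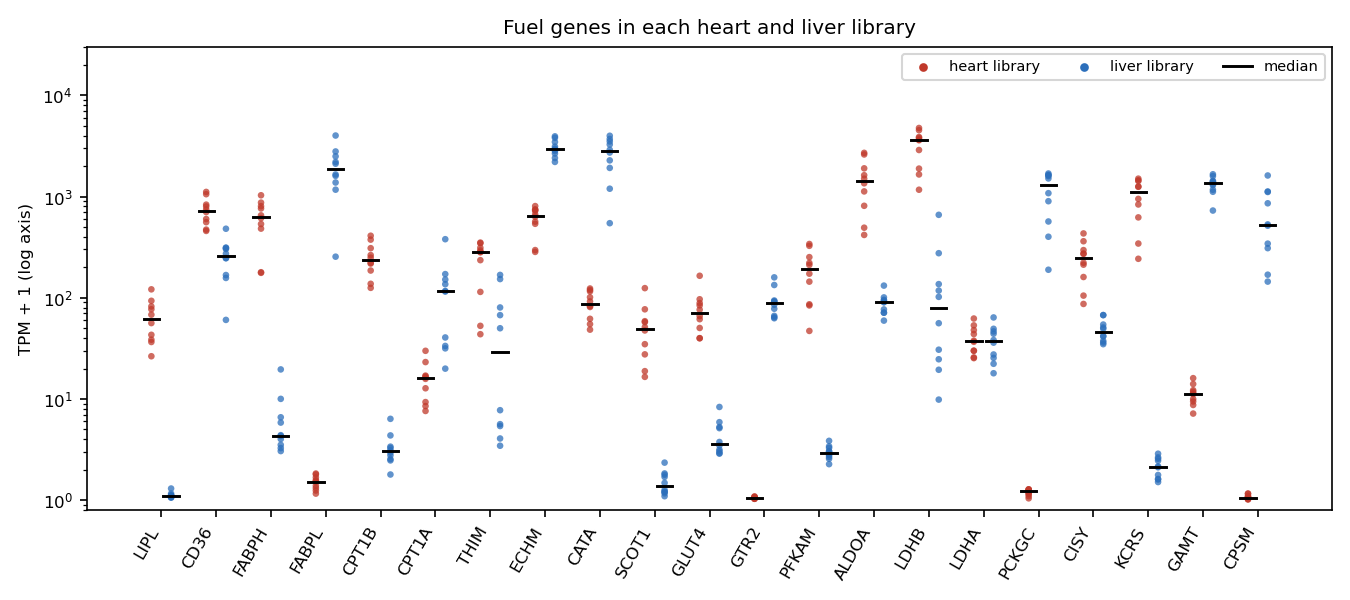
Level of 21 fuel genes in each heart (red) and each liver (blue) library, as TPM + 1 on a log axis, with black bars at the medians. FABPH, CPT1B, ALDOA and PFKAM sit high in heart, FABPL and CPT1A sit high in liver, and the LDHA points of the 2 organs lie over each other.

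Glucose uptake and glycolysis held genes of both directions, 17 of 33 tested (51.5%) higher in heart and 10 (30.3%) higher in liver, with a median of 1.22. Of all genes 18.1% and 20.8% were higher in heart and in liver. Transport differed by isoform. GLUT4, the insulin-responsive transporter of muscle and fat, stood at 38.8, 70.1 and 164 TPM in heart and 1.89, 2.62 and 7.35 TPM in liver, and GTR2 (GLUT2), the high-capacity transporter of liver, at 0.0333, 0.0546 and 0.0902 TPM in heart and 61.8, 87.4 and 158 TPM in liver. Neither gene's ranges overlapped (4.09 ± 0.20 and -6.39 ± 0.15). GTR3, a transporter with high affinity for glucose, was 82.9-fold higher in heart (27.03, 49.6 and 86.8 TPM in heart and 0.252, 0.572 and 1.41 TPM in liver, 4.98 ± 0.20), whereas GTR1 did not pass (-0.79 ± 0.17). HXK1, the hexokinase that binds to mitochondria, stood at 27.1, 57.1 and 179 TPM in heart and 1.004, 2.27 and 4.32 TPM in liver (log2 difference 4.24 ± 0.25, adjusted p = 4.3e-09). HXK4, glucokinase, stood at 3.11, 5.30 and 9.43 TPM in heart and 2.83, 48.2 and 208 TPM in liver, with a spread between livers that made the difference run from -5.67 to 0.40 (mean -2.39 ± 0.57, adjusted p = 0.00208), and 2 animals had more in heart than in liver. GCKR, the glucokinase regulatory protein, was steadier, higher in liver in 10 of 10 animals by -6.48 ± 0.15.

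At the phosphofructokinase step PFKAM, the muscle form, stood at 46.1, 191 and 339 TPM in heart and 1.27, 1.94 and 2.86 TPM in liver without overlap (log2 difference 5.76 ± 0.26, adjusted p = 2.2e-10), and PFKAL, the liver form, did not pass (0.47 ± 0.13). The enzymes that make and remove its activator fructose 2,6-bisphosphate divided as well, with F261 higher in liver (-4.69 ± 0.15) and F262 and F264 higher in heart (1.6 ± 0.16 and 2.68 ± 0.16). Below it, ALDOA, the aldolase typical of muscle, stood at 416, 1426 and 2701 TPM in heart and 58.5, 89.5 and 131 TPM in liver, again without overlap (3.84 ± 0.26). G3P, glyceraldehyde-3-phosphate dehydrogenase, was 11.9-fold higher in heart at 2478, 7425 and 11189 TPM in heart and 394, 629.8 and 774 TPM in liver (log2 difference 3.47 ± 0.23, adjusted p = 1.14e-08), so it is no neutral standard between these organs. ENOB, the muscle enolase, was 659-fold higher in heart (8.66 ± 0.25), and ENOA was higher in liver (-1.81 ± 0.24), with transcripts called in both directions. Pyruvate kinase was KPYM in heart (156, 303 and 502 TPM in heart) and KPYR in liver (20.1, 44.0 and 109 TPM in liver), with differences of 5.13 ± 0.30 and -5.48 ± 0.19. PGK1, with no second member in the list, did not pass (0.61 ± 0.23, 9 of 10 animals) and passed at 1.14 with mitochondrial transcripts left out. The list as a whole took 1.12%, 2.48% and 3.71% in heart and 0.313%, 0.352% and 0.645% in liver of the TPM outside the mitochondrial genome, ranges that did not overlap.

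Lactate handling rested on 1 of the 2 lactate dehydrogenases. LDHB, the form that favours lactate oxidation, stood at 1166, 3622 and 4754 TPM in heart and 8.87, 78.1 and 659 TPM in liver and was higher in heart in 10 of 10 animals (log2 difference 5.40 ± 0.42, adjusted p = 8.07e-08). LDHA stood at 24.3, 36.2 and 61.4 TPM in heart and 17.0, 36.1 and 62.9 TPM in liver, ranges that lay over each other, with a difference of 0.12 ± 0.23 (adjusted p = 0.679) and a higher heart in 5 of 10 animals. LDHD, which oxidizes the other mirror form of lactate, was higher in liver (-3.14 ± 0.23). MOT2, a transporter for pyruvate and lactate, was higher in heart by 3.27 ± 0.27, and MOT1 fell short at 0.82 ± 0.17, passing at 1.34 with mitochondrial transcripts left out.

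Glycogen was handled by different genes in the 2 organs, with 8 of 20 tested (40%) higher in heart and 7 (35%) in liver. Of all genes these shares were 18.1% and 20.8%. The list's median was -0.16, it turned to 0.32 with mitochondrial transcripts left out, and its mean was above 0 in 8 of 10 animals. Glycogen phosphorylase, which releases glucose 1-phosphate, was PYGM and PYGB in heart and PYGL in liver. PYGM stood at 32.9, 119 and 219 TPM in heart and 0.260, 0.465 and 1.13 TPM in liver and PYGL at 9.37, 15.4 and 20.8 TPM in heart and 57.5, 109 and 156 TPM in liver, both without overlap (6.09 ± 0.30 and -2.72 ± 0.20). PYGB, named for brain, was the most abundant phosphorylase in heart at 134, 379.9 and 827 TPM in heart against 0.822, 2.07 and 3.46 TPM in liver (6.88 ± 0.25). Glycogen synthase was GYS2 in liver (135, 273 and 409.6 TPM in liver, log2 difference -7.55 ± 0.19, adjusted p = 5.95e-13), and GYS1 did not differ beyond its spread (0.40 ± 0.21, adjusted p = 0.119), with transcripts called in both directions. GLYG, the protein that primes glycogen, was 27.4-fold higher in heart (4.39 ± 0.26). The subunits that target protein phosphatase 1 to glycogen followed suit, with PPR3A higher in heart (3.42 ± 0.18) and PPR3B higher in liver (-3.12 ± 0.34).

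Genes that make glucose and use fructose were higher in liver for 8 of 9 tested and for none in heart, with a median of -6.56. PCKGC and PCKGM, the cytosolic and mitochondrial phosphoenolpyruvate carboxykinases, stood in liver at 188, 1293 and 1688 TPM and 169, 589.8 and 999 TPM. In heart they reached 0.282 TPM at the highest for PCKGC and 1.39 TPM for PCKGM, and the differences were -9.59 ± 0.28 and -8.14 ± 0.20. G6PC1, the glucose 6-phosphatase that frees glucose for export, stood at 0.173, 0.256 and 0.702 TPM in heart and 63.9, 496 and 1357 TPM in liver (log2 difference -8.33 ± 0.38, adjusted p = 3.35e-10). All livers were above all hearts for it, for pyruvate carboxylase PYC (-6.56 ± 0.24), for fructose 1,6-bisphosphatase F16P1 (-6.85 ± 0.35) and for ketohexokinase KHK (-4.69 ± 0.17). G6PC3, the widely expressed phosphatase, did not reach the size limit (-0.55 ± 0.13).

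Entry of pyruvate and the citrate cycle leaned to heart. Of 14 pyruvate genes tested, 7 were higher in heart and 1 in liver (11 and 1 with mitochondrial transcripts left out). ODP2, the core of the pyruvate dehydrogenase complex, stood at 24.7, 58.5 and 87.6 TPM in heart and 8.14, 9.49 and 14.03 TPM in liver without overlap (log2 difference 2.23 ± 0.21, adjusted p = 5.74e-07). ODPA, its catalytic subunit, passed by little at 1.02 ± 0.13 with heart higher in 10 of 10 animals, and fell just below the limit without S0235 (0.96), S0242, S0355 or S0385. The mitochondrial pyruvate carrier had MPC2 higher in heart (1.32 ± 0.22) and MPC1 not passing (-0.44 ± 0.15). PDK4, the kinase that turns the complex off in fasting and fat use, varied from 15.5 to 549 TPM in heart and from 2.94 to 136 TPM in liver. Its difference of 1.22 ± 0.39 (adjusted p = 0.0139) fell to 0.99 without S0355 and was not called without pairing. PDK2 did not pass (-0.68 ± 0.27). The phosphatases that turn the complex back on divided by organ, with PDP1 higher in heart (3.78, 5.95 and 10.6 TPM in heart and 0.422, 0.846 and 1.82 TPM in liver, 1.90 ± 0.16) and PDP2 higher in liver (1.31, 1.82 and 2.94 TPM in heart and 8.70, 13.1 and 19.97 TPM in liver, -2.28 ± 0.16), both without overlap.

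In the citrate cycle 6 of 14 tested genes were higher in heart and 2 in liver (8 and 2 with mitochondrial transcripts left out), with a median of 0.78. CISY, citrate synthase, whose activity is a common measure of mitochondrial content, stood at 85.9, 246 and 431 TPM in heart and 33.8, 44.7 and 66.4 TPM in liver without overlap, 5.11-fold higher in heart (log2 difference 2.21 ± 0.23, adjusted p = 1.55e-06). IDH3A, the catalytic subunit of the NAD-dependent isocitrate dehydrogenase, was 13.7-fold higher (85.2, 169 and 244 TPM in heart and 9.29, 10.8 and 16.6 TPM in liver, 3.6 ± 0.15), while its partner IDH3G did not differ beyond its spread (0.06 ± 0.17, adjusted p = 0.783). Succinyl-CoA ligase shifted between its nucleotide-specific subunits, with both present in heart. SUCB1, the ADP form, stood at 30.2, 116 and 207 TPM in heart and 5.39, 16.8 and 30.9 TPM in liver and SUCB2, the GDP form, at 22.7, 65.7 and 128 TPM in heart and 144, 235.4 and 453 TPM in liver. SUCB1 was higher in heart in 9 of 10 animals (2.66 ± 0.29) and SUCB2 was higher in liver in 10 of 10 (-1.83 ± 0.26), whereas the shared subunit SUCA did not pass (0.25 ± 0.22). The NADP-dependent isocitrate dehydrogenases divided by compartment, with mitochondrial IDHP higher in heart (1.80 ± 0.21) and cytosolic IDHC higher in liver (-2.78 ± 0.15). Fumarase FUMH and malate dehydrogenase MDHM did not pass (0.20 ± 0.15 and 0.67 ± 0.30), and MDHM passed at 1.19 with mitochondrial transcripts left out.

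Nuclear genes of the respiratory chain, which passes electrons to oxygen and drives ATP synthesis, were higher in heart in almost every complex. Of 79 tested nuclear-encoded genes, 69 were higher in heart and 1 in liver, with a median of 2.19, and 62 had all hearts above all livers. Together they took 6.80%, 10.8% and 12.3% in heart and 1.24%, 1.56% and 1.90% in liver of the TPM outside the mitochondrial genome. In complex I, which takes electrons from NADH, 31 of 35 were higher in heart, with NDUB1 (1086, 1841 and 3061 TPM in heart and 75.6, 127 and 229.6 TPM in liver, 3.82 ± 0.14), NDUS7 (3.64 ± 0.13) and NDUAC (3.29 ± 0.20) among the largest and NDUAA not passing (0.23 ± 0.20). In complex III 8 of 8 passed, with QCR7 10.9-fold higher (296, 774 and 1132 TPM in heart and 43.3, 64.6 and 88.8 TPM in liver, 3.33 ± 0.17), and cytochrome c, CYC, differed by 3.15 ± 0.16. In the ATP synthase 16 of 16 passed, from the catalytic subunits ATPA and ATPB (2.02 ± 0.22 and 1.99 ± 0.22) to the small subunit ATP5I (1615, 3004 and 3544 TPM in heart and 180.3, 315 and 546 TPM in liver, 3.03 ± 0.16). CYC and ATPB each had 3 assembled transcripts called higher in heart and 1 higher in liver, and CX6B1 of complex IV had 3 and 4. ATIF1, the protein that blocks the enzyme from running in reverse, was 5.52-fold higher (2.39 ± 0.17). Complex IV passed in 13 of 15, with COX6C, COX7B and NDUA4 at high heart medians (2625, 3378 and 2368 TPM).

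Complex II, which links the citrate cycle to the chain and has no subunit from the mitochondrial genome, had 0 of 4 genes called, with a median of 0.68. SDHA, its catalytic subunit, stood at 163.4, 298 and 381 TPM in heart and 128, 167 and 249 TPM in liver and SDHB at 264.4, 726 and 806 TPM in heart and 286, 364 and 426 TPM in liver, ranges that overlapped, with heart higher in 9 of 10 animals for each (0.68 ± 0.17 and 0.67 ± 0.16). DHSD differed by 0.79 ± 0.18 and C560 by -0.24 ± 0.31. 3 of the 4 had adjusted p-values below 0.05 (0.00283, 0.00222 and 0.0015) and lay under the size limit, and with mitochondrial transcripts left out they passed at 1.21, 1.19 and 1.32. Whether complex II differs less than the other complexes was not tested.

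Transcripts of the mitochondrial genome made up 34.1%, 32.8%, 45.5%, 47.1% and 43.5% of all TPM in the hearts of S0235, S0242, S0276, S0309 and S0326, and 29.1% to 39.6% in the 5 L-type hearts. In liver they made up 26.4% in S0326 and 6.58% to 10.3% in the other 9. 8 of the 9 genes with a contig passed, all higher in heart, with a median of 1.88. COX1, the catalytic subunit of complex IV, stood at 131927, 190556 and 243755 TPM in heart and 27483, 31639 and 101194 TPM in liver without overlap (log2 difference 2.39 ± 0.21, adjusted p = 2.08e-07), and NU1M of complex I at 7727, 9903 and 17703 TPM in heart and 982, 1047 and 4531 TPM in liver (3.01 ± 0.19). NU3M passed at 1.09 ± 0.30 and fell below the limit without S0276, S0309 (0.91) or S0349. CYB ran from -2.11 to 11.12 between animals and did not pass (2.13 ± 0.91, adjusted p = 0.0552), but it did without S0309 (1.13) or S0385 (2.60). The single genes cannot be told apart well, since contigs named COX1 reached 5571 bases and those named NU5M 6633 bases, longer than those genes, and 4 of the 13 protein genes had no contig of their own name. In the hearts of S0276, S0309 and S0326, with the highest mitochondrial shares, nuclear respiratory chain genes took 6.17%, 4.12% and 3.85% of all TPM, against 6.13% to 8.16% in the other 7, and heart muscle markers took 4.85%, 3.24% and 2.67%, against 6.62% to 9.05%. A high mitochondrial share by itself lowers such shares of all TPM, so a deficit of either list in these hearts cannot be read from them. Of the TPM outside the mitochondrial genome, the nuclear chain genes took 6.80%, 10.8% and 12.3% over the 10 hearts. Heart muscle markers took 4.73%, 11.4% and 13.5% there, so a spread between hearts remained on that scale.

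**Figure D2:**
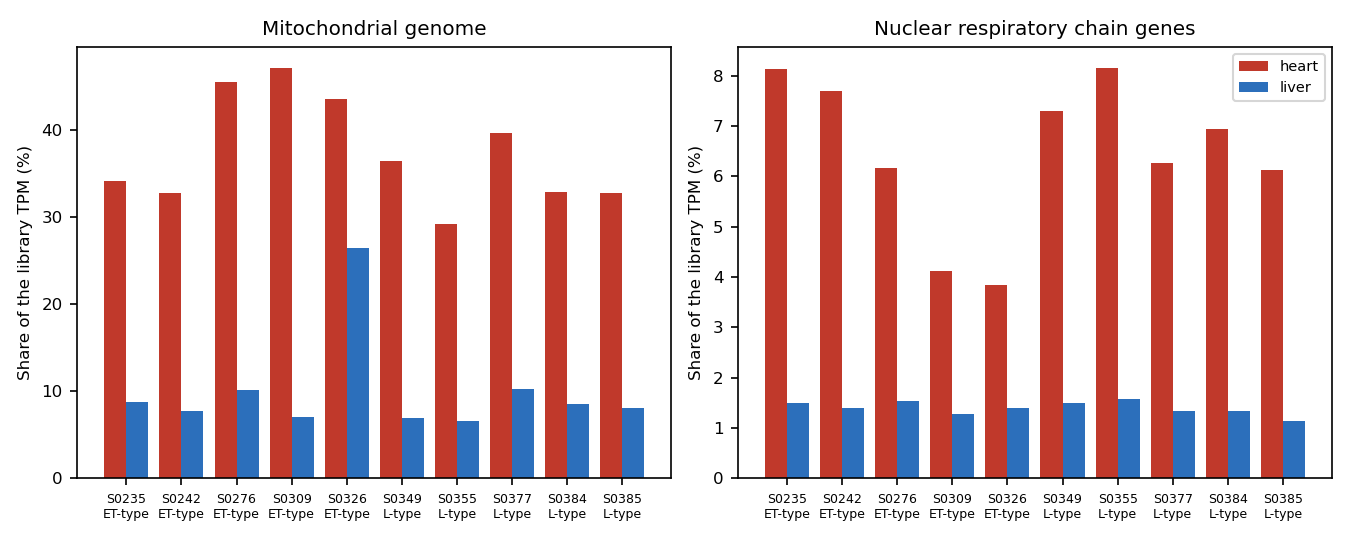
Share of each library's TPM (%) taken by transcripts of the mitochondrial genome (left) and by nuclear respiratory chain genes (right), for heart (red) and liver (blue) of each animal. In all 10 animals both bars are taller for heart, the liver of S0326 stands out at 26.4%, and the hearts of S0309 and S0326 have the lowest nuclear shares, at 4.12% and 3.85%. Both panels are shares of all TPM, so a high mitochondrial share lowers the nuclear one.

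Isoform use was then read as the share of 1 member in the summed TPM of a pair, which does not move with the scale of a library. Of 24 pairs, 22 had a share of the first member that was higher in heart than in liver in 10 of 10 animals, with no overlap between the organs (exact permutation test by sign flips, two-sided, p = 0.00195, the smallest that 10 pairs can give, adjusted p = 0.00213 over the 24). CPT1B took 89.4%, 94.2% and 97.9% in heart and 0.513%, 1.6% and 15.1% in liver of CPT1B and CPT1A. In complex IV, CX6A2 took 85.4%, 96.4% and 97.7% in heart and 3.595%, 7.21% and 20.1% in liver of its pair with CX6A1, and CX7A1 took 47.1%, 54.5% and 61.5% in heart and 1.94%, 5.12% and 20.5% in liver of its pair with CX7A2. COX8B, a subunit that is silent in humans, took 89.1% to 96.6% of its pair with COX8A in heart, at 1874, 3280.0 and 4464 TPM, and was listed at 0 in all 10 livers. COX42, the isoform of lung and of low oxygen, took 3.35%, 4.15% and 12.7% in heart and 0.0339%, 0.310% and 2.09% in liver, so COX41 made up most of that pair in both organs. The ubiquitous members followed no single direction: CX6A1 was higher in liver (-1.4 ± 0.18, -0.88 and not called with mitochondrial transcripts left out), COX8A did not pass (-0.53 ± 0.13), and CX7A2 and COX41 were higher in heart (1.46 ± 0.11 and 2.58 ± 0.25).

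Outside the chain, KPYM, GLUT4 and FABPH took nearly all of their pairs in heart, with medians of 99.98%, 99.9% and 99.9%. ENOB took 77.3%, 96.8% and 97.4% in heart and 0.429%, 0.852% and 2.02% in liver of its pair with ENOA. Other pairs shifted without an exchange: LDHB took 95.7%, 99.0% and 99.5% in heart and 25.05%, 63.8% and 91.3% in liver of LDHB and LDHA, and ADT1 took 89.7%, 97.96% and 98.9% in heart and 52.8%, 74.1% and 83.7% in liver of ADT1 and ADT2. PGAM2, the muscle phosphoglycerate mutase, took 29.3%, 45.4% and 49.2% in heart and 0.0346%, 0.156% and 2.33% in liver, so PGAM1 remained the larger part in heart as well. AT5G1, 1 of the genes for the ring subunit of the ATP synthase, took 44.4%, 47.5% and 56.6% in heart and 23.7%, 27.4% and 41.5% in liver of its pair with AT5G3. For the aspartate-glutamate carriers of the malate-aspartate shuttle, S2512 took 81.5%, 86.3% and 92.4% in heart and 2.83%, 4.60% and 8.74% in liver, with S2513 as the other member. SUCB1 took 44.7%, 59.7% and 69.3% in heart and 2.62%, 6.11% and 10.2% in liver of SUCB1 and SUCB2. By the same exact permutation test, the 2 pairs with overlap were F16P2 with F16P1 (heart share higher in 9 animals, p = 0.00391) and BCAT2 with BCAT1 (8 animals, p = 0.041).

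**Figure D3:**
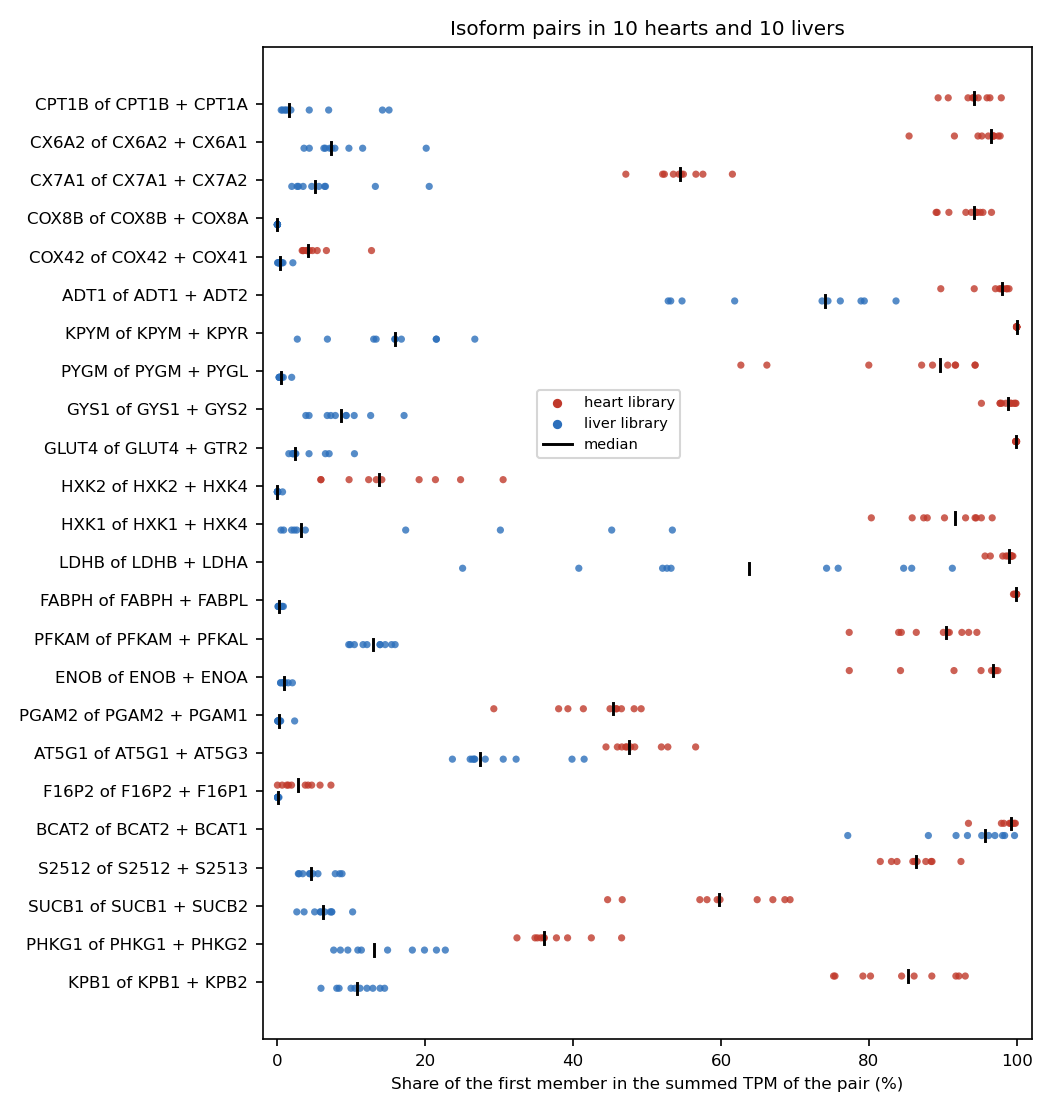
Share (%) of the first member in the summed TPM of 24 isoform pairs, with 1 point for each heart (red) and liver (blue) library and black bars at the medians. In 22 pairs the red and blue points do not overlap, and the points of F16P2 with F16P1 and of BCAT2 with BCAT1 do.

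Genes that move energy out of the mitochondrion were higher in heart, and those that make creatine were higher in liver. KCRM, the cytosolic creatine kinase of muscle, stood at 966, 3665 and 7739.9 TPM in heart and 0, 0.159 and 0.528 TPM in liver (11.40 ± 0.25). KCRS, the mitochondrial form of muscle that couples ATP export to creatine phosphate, stood at 241.7, 1097 and 1501 TPM in heart and 0.513, 1.14 and 1.88 TPM in liver (log2 difference 8.67 ± 0.25, adjusted p = 2.22e-12). Neither gene's ranges overlapped. SC6A8, the creatine transporter, was 10.8-fold higher in heart (3.25 ± 0.25), and KCRB did not differ beyond its spread (-0.42 ± 0.34). GATM and GAMT, the 2 enzymes of creatine synthesis, stood at 3.69, 4.91 and 8.73 TPM in heart and 77.4, 269.8 and 732 TPM in liver and at 6.18, 10.3 and 15.1 TPM in heart and 726, 1357 and 1658 TPM in liver, with all livers above all hearts (-5.38 ± 0.33 and -6.87 ± 0.10). The ADP/ATP carrier ADT1 and the phosphate carrier S25A3 were higher in heart (3.10 ± 0.30 and 2.60 ± 0.23), whereas ADT2 at -0.99 ± 0.23 fell just short of the limit (called at -1.04 without S0276 and in other leave-outs) and ADT3 did not pass (0.50 ± 0.16). MYG, myoglobin, the oxygen store of muscle, stood at 3649, 9911 and 16901 TPM in heart and 1.02, 1.78 and 2.92 TPM in liver (11.66 ± 0.23).

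The outer membrane channels VDAC1, VDAC2 and VDAC3 were all higher in heart, VDAC3 by most (202, 456 and 588 TPM in heart and 36.8, 45.5 and 57.7 TPM in liver, 3.07 ± 0.16, no overlap). The calcium uniporter pore MCU did not reach the limit (0.45 ± 0.19). Its dominant-negative relative MCUB was higher in liver (1.51, 2.13 and 7.05 TPM in heart and 7.13, 10.8 and 21.9 TPM in liver, log2 difference -1.69 ± 0.28, adjusted p = 0.000124) and the regulator MICU3 was higher in heart (4.88, 12.7 and 20.2 TPM in heart and 0.630, 1.03 and 1.76 TPM in liver, 2.68 ± 0.17), neither with overlap. UCP2 and UCP3, uncoupling protein relatives, had low levels in both organs and did not pass (0.29 ± 0.19 and 0.16 ± 0.17). In the malate-aspartate shuttle, which carries electrons from the cytosol, MDHC stood at 367, 1242 and 1535 TPM in heart and 36.1, 81.7 and 114 TPM in liver (log2 difference 3.67 ± 0.20, adjusted p = 2.23e-09) and the carrier M2OM differed by 1.39 ± 0.25. The aspartate-glutamate carriers divided, S2512 at 3.88 ± 0.19 and S2513 at -2.56 ± 0.17. In the glycerol phosphate shuttle the cytosolic GPDA was higher in liver (-2.66 ± 0.17), and the mitochondrial GPDM (1.36 ± 0.14) and the cytosolic GPD1L (1.25 ± 0.30) were higher in heart. TXTP, the citrate carrier that supplies lipid synthesis, was 8.24-fold higher in liver (-2.78 ± 0.19).

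Of 20 tested regulators of mitochondrial content, 6 (30%) were higher in heart and 3 (15%) in liver, with a median of 0.32. Of all genes 18.1% were higher in heart and 20.8% in liver. PRGC1 (PGC-1 alpha), a coactivator of mitochondrial genes, stood at 12.6, 19.4 and 32.8 TPM in heart and 9.62, 15.1 and 26.1 TPM in liver, overlapping and under the size limit (log2 difference 0.29 ± 0.12, adjusted p = 0.0471). Its relative PRGC2 was 17.9-fold higher in heart (2.64, 6.58 and 7.48 TPM in heart and 0.0991, 0.325 and 0.641 TPM in liver, 2.38 ± 0.14) and the muscle coregulator PERM1 5.52-fold (2.48 ± 0.22). Of their partner receptors ERR3 was higher in heart (1.88 ± 0.16), ERR1 did not pass (-0.78 ± 0.17), and PPARA and PPARD were higher in liver (-1.25 ± 0.30 and -1.68 ± 0.18), PPARA at -0.82 and not called with mitochondrial transcripts left out. None of 6 genes listed for the upkeep of mitochondrial DNA passed, among them TFAM (-0.50 ± 0.19), the helicase PEO1 (-0.81 ± 0.16) and NRF1, a transcription factor of nuclear genes for the mitochondrion (0.37 ± 0.14). For mitochondrial shape, MFN2 of fusion and DNM1L of fission were both higher in heart (1.42 ± 0.19 and 1.4 ± 0.12). The mitochondrial ribosome, with 75 tested genes, had 10 (13.3%) higher in heart and 4 (5.33%) in liver, both below the shares of all genes, at a median of 0.20. That count moved with the scale, to 26 and 0 with mitochondrial transcripts left out and to 22 and 1 with quantile normalization. Of all genes, 6718 and 3822 of 25400 were called with mitochondrial transcripts left out, and 4835 and 4325 of 23196 with quantile normalization. On both of these scales the list's heart count was above the share of all genes and its liver count below. RT06 (92.1, 345 and 468 TPM in heart and 13.0, 20.4 and 28.9 TPM in liver, 3.75 ± 0.20), RM33 (3.37 ± 0.21) and RM51 (2.52 ± 0.14) led it, while RM04 was higher in liver (-1.51 ± 0.15, just under 1 in size and not called with mitochondrial transcripts left out).

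Mitochondrial defence against peroxides and superoxide had 1 of 8 genes (12.5%) higher in heart and 3 (37.5%) in liver, against 18.1% and 20.8% of all genes. SODM, the manganese superoxide dismutase, stood at 23.6, 155 and 212 TPM in heart and 11.5, 37.9 and 58.9 TPM in liver, overlapping but higher in heart in 9 of 10 animals (log2 difference 1.56 ± 0.29, adjusted p = 0.000367). GPX1, a glutathione peroxidase, stood at 83.5, 94.9 and 129 TPM in heart and 506, 799 and 946 TPM in liver without overlap (log2 difference -2.87 ± 0.13, adjusted p = 2.22e-10). PRDX5 and the mitochondrial thioredoxin THIOM were also higher in liver (-3.26 ± 0.18 and -1.64 ± 0.16). PRDX3 and the transhydrogenase NNTM did not pass (-0.66 ± 0.28 and -0.01 ± 0.39), and GPX4 fell short at 0.84 ± 0.24 but passed without S0309 (1.0) and with mitochondrial transcripts left out (1.37).

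Nitrogen and amino acid genes marked the liver. All 7 urea cycle genes were higher in liver with ranges that did not overlap, at a median of -6.56. CPSM, the carbamoyl-phosphate synthase of the liver mitochondrion, stood at 0.0178, 0.0638 and 0.162 TPM in heart and 143, 522 and 1613 TPM in liver (log2 difference -8.89 ± 0.32, adjusted p = 2.62e-11), and ASSY, argininosuccinate synthase, at 12.6, 36.6 and 65.3 TPM in heart and 1012, 2625 and 10365 TPM in liver (-6.56 ± 0.22). In amino acid breakdown 15 of 16 tested were higher in liver. BHMT1, which remethylates homocysteine, stood at 0.0305, 0.133 and 0.252 TPM in heart and 383, 1457 and 2643 TPM in liver (-10.20 ± 0.24), and the tyrosine enzymes HPPD and ATTY differed by -9.46 ± 0.15 and -9.01 ± 0.37. The exception was GLSK, the kidney-type glutaminase, at 23.4, 50.9 and 87.0 TPM in heart and 1.30, 2.38 and 4.29 TPM in liver (log2 difference 3.96 ± 0.16, adjusted p = 6.01e-11), set against GLSL, the liver type (0.216, 0.569 and 1.01 TPM in heart and 27.3, 60.6 and 134 TPM in liver, -5.33 ± 0.21), both without overlap. PROD, proline dehydrogenase, ran from -6.05 to 0.43 between animals and was called at -1.70 ± 0.59, but not at -1.31 with mitochondrial transcripts left out.

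Breakdown of branched-chain amino acids changed organ along the route. BCAT2, the transaminase of the first step, stood at 33.9, 50.9 and 107 TPM in heart and 2.88, 4.39 and 10.8 TPM in liver (log2 difference 3.09 ± 0.22, adjusted p = 3.68e-08), 9.66-fold higher in heart without overlap. ODBA of the second step, the branched-chain keto acid dehydrogenase, stood at 34.0, 51.3 and 72.3 TPM in heart and 305, 413 and 468 TPM in liver (log2 difference -3.00 ± 0.14, adjusted p = 3.85e-10), 7.92-fold higher in liver, and the kinase BCKD that inhibits it was higher in heart (1.14 ± 0.22). Of the 11 later enzymes 9 were higher in liver and none in heart, among them ACDSB (-3.17 ± 0.21) and MMSA (-2.84 ± 0.34), with HIBCH not passing (-0.13 ± 0.21). In lipid synthesis and export 9 of 13 tested were higher in liver. MTP and APOB, which load and carry very low density lipoproteins, differed by -6.56 ± 0.15 and -8.75 ± 0.16. FAS, fatty acid synthase, and SCD, the desaturase, spread widely between livers (15.99, 116 and 563 TPM and 1.34, 20.4 and 239 TPM), against 1.79, 3.597 and 5.60 TPM and 0.142, 0.445 and 0.776 TPM in heart, and still differed (-4.43 ± 0.41 and -4.01 ± 0.49). Lipid droplet proteins divided, PLIN2 being higher in heart (1.54 ± 0.30, 9 of 10 animals, overlapping) and PLIN5 higher in liver (-2.21 ± 0.29). LIPS, hormone-sensitive lipase, was 13.6-fold higher in heart (2.03 ± 0.17).

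**Figure D4:**
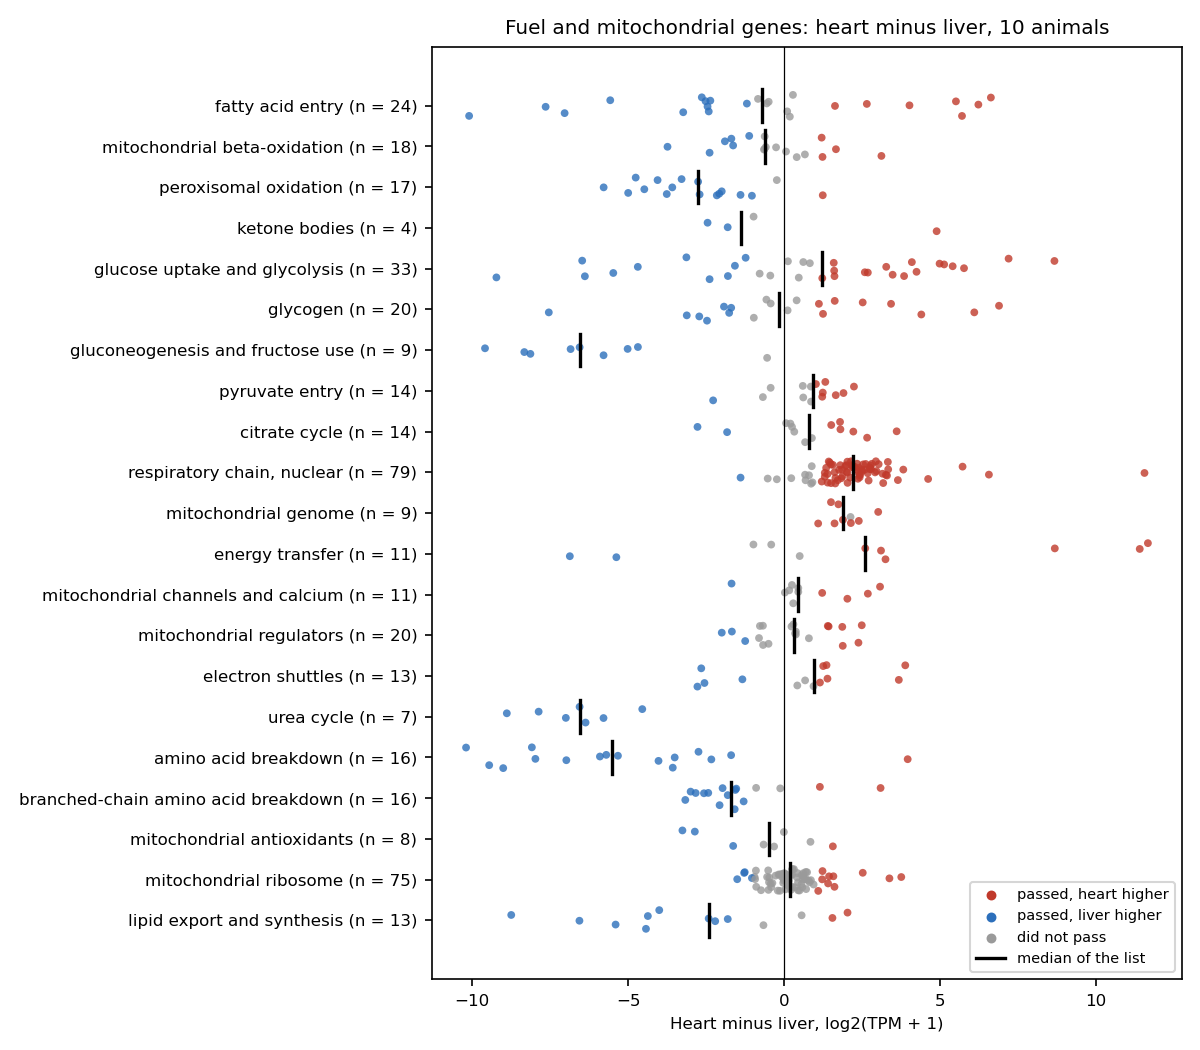
Heart minus liver difference in log2(TPM + 1) of each tested gene in the 21 lists, with 1 point per gene, red where it passed higher in heart, blue where it passed higher in liver and grey where it did not pass, and black ticks at the list medians. The nuclear respiratory chain lies almost wholly right of 0, and the glycolysis and glycogen lists spread to both sides. The urea cycle list lies left of 0, as does the peroxisomal list but for 1 gene.

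Among all 11993 tested genes with an entry, the 10 largest differences toward heart were MLRV, TNNC1, TNNT2, MYL3, MYG, MYH7, COX8B, TELT, KCRM and TNNI3. MYG, COX8B and KCRM belong to oxygen storage, complex IV and energy transfer, and the others are proteins of the sarcomere. The 10 largest toward liver were ALBU, FIBB, TRFE, APOH, APOC3, FIBA, SPA38, SPA35, CP2CN and APOE, which are plasma proteins and apolipoproteins apart from CP2CN, a cytochrome P450. TNNC1, the calcium sensor of the sarcomere, stood at 4220.1, 13543 and 15415 TPM in heart and 0, 0.151 and 1.36 TPM in liver (13.08 ± 0.24), and TRFE, the iron carrier transferrin, at 0.0505, 0.105 and 0.352 TPM in heart and 2582, 8318 and 15603 TPM in liver (-12.71 ± 0.20). SPA35 and SPA38 are serpins, a family of near copies among which reads of assembled transcripts can be split, so their single values are uncertain.

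Whether the organ difference depended on the type of minipig was tested on the 10 paired differences, 5 ET-type against 5 L-type animals. Of 23196 genes, 3 (0.0129%) passed, and none of the 430 list genes did, although 87 of them had an unadjusted p below 0.05, 68 of these with a lower value in ET-type animals. Over all genes 3432 (14.8%) had an unadjusted p below 0.05. BTG3, an anti-proliferative protein that is in no list, was the gene with an entry that passed. It stood at 3.94, 10.1 and 29.6 TPM in heart and 19.9, 46.9 and 137 TPM in liver, and its heart minus liver difference was -0.81 in ET-type and -3.42 in L-type animals, 2.60 ± 0.33 apart (limma adjusted p = 0.0287). This call was lost when any of S0235, S0276, S0326, S0377, S0384 or S0385 was left out (adjusted p = 0.106 to 0.136). It was also lost with no filter on low values (0.0641) and without the 10 highest genes (0.0691). The count of 3 rested on single animals, being 118 without S0309, 37 without S0242 and 29 without S0355. In a fit that did not pair the libraries by animal it was 21, with MCUB and F16P1 as the list genes among them (adjusted p = 0.0428 and 0.0457). Of the list genes MCUB passed without S0309 (1.70, adjusted p = 0.0492) and ARGI1 without S0355 (2.92, adjusted p = 0.0429).

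The list genes nearest to passing went both ways and are given as not passing. MCUB was -0.82 in ET-type and -2.55 in L-type animals (adjusted p = 0.0763), F16P1 was -5.81 in ET-type and -7.88 in L-type animals (0.0916) and ELOV6, a fatty acid elongase, was -4.49 in ET-type and -6.32 in L-type animals (0.11). In the other direction PDK2 was -1.48 in ET-type and 0.11 in L-type animals (0.0859), the racemase AMACR of peroxisomal oxidation was -3.75 in ET-type and -1.67 in L-type animals (0.0859) and ACADL was -0.82 in ET-type and 0.94 in L-type animals (0.115). By list, the ET-type minus L-type value was below 0 for 17 of 18 beta-oxidation genes (median -0.68), 13 of 14 citrate cycle genes (-0.65) and 70 of 79 nuclear respiratory chain genes (-0.42), where the median of all genes was 0.13. It was above 0 for all 7 urea cycle genes (0.51), 7 of 9 genes of gluconeogenesis and fructose use (0.58), 11 of 16 of amino acid breakdown (0.32) and 6 of 9 of the mitochondrial genome (0.12). Animal S0309, 1 of the 5 ET-type animals, had the lowest mean difference of the 10 in 17 of the 21 lists. Its part in these values by type was not tested. Without S0309 the organ comparison kept its list medians on the same side of 0 except glycogen (0.01), with beta-oxidation at -0.40 and the citrate cycle at 1.02. No cell marker passed the test of type in limma, although 4 of the 6 endothelial and all 6 fibroblast markers had an unadjusted p below 0.05. Heart muscle markers took 2.67% to 7.43% of all TPM in ET-type hearts and 7.50% to 9.05% in L-type hearts, and all 6 endothelial and all 6 fibroblast markers had a larger heart minus liver value in ET-type animals (medians 1.54 and 1.66). Hepatocyte markers took 10.03% to 24.6% of all TPM in ET-type livers and 18.2% to 22.7% in L-type livers. A high mitochondrial share lowers these shares of all TPM. It was highest in the hearts of S0276, S0309 and S0326 and the liver of S0326, all ET-type. The part of the cell markers in the values by type was not tested.

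**Figure D5:**
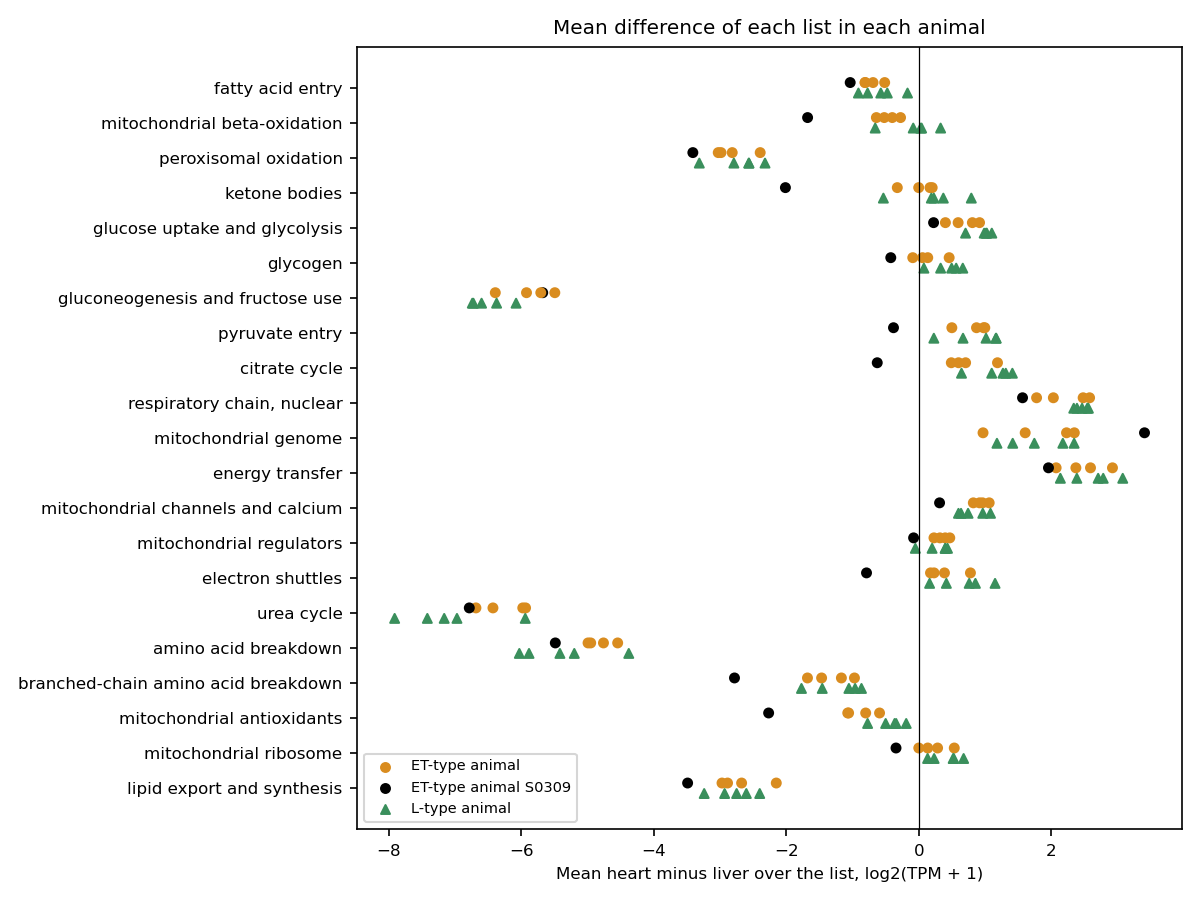
Mean heart minus liver difference, in log2(TPM + 1), of each list in each animal, with circles for ET-type and triangles for L-type animals and S0309 in black. The black point lies lowest in beta-oxidation (-1.68), ketone bodies (-2.01) and the citrate cycle (-0.63), and highest in the mitochondrial genome list, while the respiratory chain lies right of 0 in all 10 animals.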

How the data were processed

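RNA from heart and liver of 10 minipigs was measured in 20 libraries. TRIzol extraction and stranded poly(A) library preparation are per the labels' protocols, and Salmon 1.10.0, Trimmomatic 0.36 and the pig build Sscrofa11.1 are named in the submitters' processing notes, which give no order of steps. The authors deposited TPM for 57085 de novo assembled transcripts together with their best Swiss-Prot match. All libraries sum to the same total, so their depth is unknown, no count model was used and no counting interval is given. Of the transcripts, 36484 (63.9%) had an entry, with a median identity of 91.7%, and were summed into 14532 entries. The others were kept singly, which gave 35133 genes in all. The test took genes whose mean over the 20 libraries reached 1 TPM.

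The log2(TPM + 1) values were fitted in limma 3.58.1 (R 4.3.3) with trended empirical Bayes and the animal as block, and p-values were adjusted by Benjamini and Hochberg's method over all 23196 genes. A gene was called at an adjusted p below 0.05 and a difference of at least 1. The same test was applied to the 10 paired differences, 5 against 5 animals. The fit was checked on simulated data. Tables were made with pandas 2.3.3 and numpy 2.4.6 under Python 3.11.15, and plots with matplotlib 3.10.9. The pairing comes from the animal codes in the titles. Deviations from the means of each organ and type correlated between heart and liver of 1 animal at -0.0123 to 0.331 (9 of 10 above 0.1). Over 40 pairs of different animals of the same type the mean was -0.0607. Deviations within a group sum to 0, which nearly fixes this mean from the same-animal values, so it is no separate check of the pairing. No library duplicated another (highest correlation 0.954).

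The members and lists were chosen with earlier results of these data known, and some entry names were brought up to date once the annotation had been seen. From each list the text names up to 8 called genes with the largest differences in each direction, the members of isoform pairs, and up to 4 genes that did not pass. From all genes it names the 10 with the largest difference in each direction, and from the test of type the called genes or the list genes nearest to passing. Further list genes were named for their role after their values were seen. 16 of the 455 list genes had no entry in the annotation and 9 more fell below the filter. The alternatives were another pseudocount, filter, scaling, call rule, identity limit or unit, robust fitting, no pairing, and each animal left out in turn. Transcript sequences were not used here, and some list genes that enter the counts are not reported here by name. The libraries of the other organs were not analysed here.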

Additional observations from a re-analysis of the deposited data

Results flagged for a closer look

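In the 258 sets of 10 paired differences (21 list means and the genes named in the text), 1 animal lay far from the other 9 in 52, by Dixon's gap over range at the 95% level. Chance alone sets about 1 in 20 such sets apart, but all sets come from the same 10 animals. They are not independent, so 52 of 258 cannot be weighed against that rate. Of the 52, 36 concerned S0309 and 12 S0326. In the list means it was always S0309 and always the lowest, with values in log2(TPM + 1) of mitochondrial beta-oxidation (-1.68), ketone bodies (-2.01), citrate cycle (-0.63), electron shuttles (-0.79), branched-chain amino acid breakdown (-2.78) and mitochondrial antioxidants (-2.27).

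Of genes of citrate cycle, respiratory chain and energy carriers, S0309 lay apart as the lowest for ATPA (0.11), ATPB (0.16), C560 (-3.10), DHSD (-0.70), FUMH (-0.90), MDHC (1.97), MDHM (-2.03), S25A3 (0.71), SDHA (-0.60), SUCB1 (-0.03), SUCB2 (-4.26) and VDAC2 (-0.03). Of genes of fat and fuel oxidation, S0309 lay apart as the lowest for ECHB (-0.77), ETFA (-3.13), ETFD (-0.84), LDHD (-5.19), MOT2 (1.04), MPC2 (-0.57), PGK1 (-1.29) and THIL (-3.01). It was likewise the lowest for ACDSB (-4.94), BCKD (-0.82), HIBCH (-1.85), MFN2 (-0.08), NNTM (-3.53), PRDX3 (-3.05), SODM (-1.28) and THIOM (-2.81), and the highest for APOC3 (-11.39) and CYB (11.12). The values of ATPA, ATPB, SUCB1, MFN2 and VDAC2 in this animal lay close to 0, where the other animals had more in heart.

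S0326 lay apart as the lowest for COX1 (1.08), COX7B (0.76), NDUS7 (2.75), NU5M (0.63), TELT (8.69) and TNNI3 (8.35), and as the highest for CD36 (4.12), CX6A1 (0.12), FIBA (-10.82), FIBB (-11.69), SPA38 (-9.12) and TRFE (-11.17). TELT and TNNI3 belong to the sarcomere, and FIBA, FIBB, SPA38 and TRFE are plasma proteins made by hepatocytes. COX1 and NU5M are mitochondrial genes, and the liver of this animal had the highest mitochondrial share of its organ. Other animals lay apart for ACACB (lowest in S0355, 1.94), DNM1L (lowest in S0276, 0.75), FABPL (highest in S0385, -7.37) and PRGC1 (lowest in S0377, -0.49).

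The organ difference of BTG3 depended on type in limma's test, being 2.60 higher in ET-type than in L-type animals (adjusted p = 0.0287), and the call was lost without any of 6 single animals.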

How the results depend on the processing

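No called list or marker gene changed sign under the alternatives that kept genes as the unit, but the balance of all genes did. The 9030 calls (4196 higher in heart, 4834 higher in liver) became 5301 (2279 and 3022) with a mean of at least 5 TPM, where fewer genes were tested, 15104 (6913 and 8191) with no minimum difference and 4107 (1808 and 2299) with a difference of at least 2. Testing transcripts in place of genes gave 13594 calls, 7541 of them higher in liver, and leaving mitochondrial transcripts out gave 6718 higher in heart and 3822 in liver. The median of all genes, -0.11, was then 0.31, and it was 0.14 without the 10 highest genes and 0.02 with quantile normalization. With 1 animal left out the calls ran from 8976 to 9252, those higher in heart from 4075 to 4357 and those higher in liver from 4737 to 5146. Of the list and marker genes, 39 calls were gained and 14 lost with mitochondrial transcripts left out, 29 and 9 with quantile normalization, and 20 and 6 without the 10 highest genes. The other pseudocount, filters, scaling and identity limit, robust fitting, no pairing and the leave-outs each gained or lost at most 9. The minimum difference mattered more, since without it the mitochondrial ribosome had 30 genes higher in heart and 15 in liver and the nuclear respiratory chain had 75 higher in heart. TPM carries no depth, so counting error in low genes could not be given.

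The 3 calls of the test of type were 5 with a pseudocount of 0.1, 1 with a mean of at least 5 TPM, 6 with median-ratio scaling and 9 with quantile normalization, and they ran from 2 to 118 with 1 animal left out. Where not stated otherwise the cause was not tested. Without the animal as replicate block the organ comparison gave 8987 calls (4175 and 4812) and the test of type 21. Among list genes the block changed 1 organ call, that of PDK4 (adjusted p = 0.132 without it).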

Other observations

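Phosphorylase kinase, which switches on glycogen phosphorylase, divided by its regulatory alpha subunit: KPB1, the muscle form, stood at 13.1, 21.4 and 27.5 TPM in heart and 2.16, 2.75 and 3.32 TPM in liver (log2 difference 2.52 ± 0.15, adjusted p = 4.1e-09), and KPB2, the liver form, at 1.55, 3.77 and 5.23 TPM in heart and 15.5, 22.7 and 39.9 TPM in liver (log2 difference -2.48 ± 0.20, adjusted p = 1.12e-07). The heart and liver ranges of neither gene overlapped. In the making of glycogen, liver had a higher UGPA, which makes UDP-glucose (-1.70 ± 0.22), and a higher branching enzyme GLGB (-1.93 ± 0.27). Among nuclear receptors PPARG, known from fat cells, was higher in heart at 1.67, 2.57 and 5.55 TPM in heart and 0, 0.0312 and 0.348 TPM in liver (log2 difference 1.86 ± 0.14, adjusted p = 4.86e-08), and RXRA, the partner of the PPARs, was higher in liver (-2.0 ± 0.31). Of other liver routes, PH4H, which turns phenylalanine into tyrosine, stood at 6.08, 18.7 and 23.4 TPM in heart and 369.6, 922 and 3876 TPM in liver (log2 difference -5.91 ± 0.25, adjusted p = 1.3e-10), and DGAT2, which makes triglyceride, differed by -4.37 ± 0.18. PGS2 (decorin) and LUM (lumican), collagen-binding proteins of fibroblasts, had the largest differences of the cell markers outside muscle and hepatocytes (6.48 ± 0.44 and 5.55 ± 0.34), and MARCO, a scavenger receptor of macrophages, was higher in liver (-4.56 ± 0.38). The 6 macrophage markers did not share a direction: 3 were above 0 and 3 below, and 4 did not pass, among them VSIG4 (0.58). The genes of these other observations were chosen after their values were seen.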
